A study of Mus musculus with 12 samples.

Results

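The unfolded protein response (UPR) was followed through 10 genes, Hspa5, Hsp90b1, Pdia4, Dnajb9, Herpud1, Xbp1, Creb3l3, Atf4, Ddit3 and Trib3. They were chosen by name out of 32285 genes in the matrices, with earlier results of these data known. Every one of the 10 was detected and passed the minimum of 10 counts in hepatocyte nuclei, with between 4999 UMIs (Trib3) and 58064 UMIs (Hspa5) over all samples. The data are single-nucleus RNA counts (unique molecular identifiers, UMIs) from 8 chow-fed wild-type male mice, 10 to 12 weeks old, labelled C57BL6J while the study's methods name C57BL/6NTac. Each mouse gave liver tissue (Liver, L), isolated cells in suspension (Cell Suspension, CS) and hepatocytes plated on collagen for 24 hours (Primary Hepatocytes, PH). Samples with 1 mouse number come from 1 liver. The L sample was a lobe taken after perfusion with a calcium-free buffer and before collagenase, CS had passed through collagenase digestion as well, and PH had been cultured overnight with dexamethasone and insulin and was lifted with trypsin. L is therefore perfused and not untouched tissue, and the effects of collagenase, low-speed spins and handling time cannot be told apart in CS. Nuclei of all samples were sorted before loading.

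When unfolded protein builds up in the endoplasmic reticulum (ER), the membrane sensors IRE1 (encoded by Ern1), PERK (encoded by Eif2ak3) and ATF6 are released from the ER chaperone BiP, the product of Hspa5. IRE1 removes a short intron from the Xbp1 mRNA so that it encodes an active transcription factor, ATF6 is cut by the site-1 and site-2 proteases into one, and PERK phosphorylates eIF2alpha, which lowers general translation and favours translation of ATF4. Hepatocytes secrete large amounts of plasma protein, and they carry a liver-enriched relative of ATF6, CREBH, encoded by Creb3l3.

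Promoter letters were searched for exact matches to the classical element that ATF6 and XBP1 read, and the matches are given before the values. In the 250 bases upstream of the RefSeq start (GRCm38.p6, all 10 genes found, both strands searched), the ER stress response element ERSE, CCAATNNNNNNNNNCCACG, was matched once in Hspa5 and 2 times in Hsp90b1, against 0.113% of all 32851 promoter windows of that length. The shorter element ERSE-II was matched in Herpud1, against 0.0304% of windows. The amino acid response letters TGATGCAA were matched once, also in Herpud1 (0.791% of windows), while the CRE letters TGACGTCA (1.55% of windows) and the UPRE core TGACGTGG (0.563%) were not in any of the 10 genes' windows. The bare CCACG, which overlaps ERSE and ERSE-II, was in the windows of Hspa5, Hsp90b1, Atf4, Dnajb9, Herpud1 and 1 of the 2 Creb3l3 starts, and in 28.3% of all windows. The sequences of Hspa5, Hsp90b1 and Herpud1 are shown because they hold the full elements, with matches in capitals and the rest in lower case, 5′ to 3′ on the gene's strand.
Hspa5 (chr2:34772025-34772043 for the capitals, plus strand, upstream of the RefSeq start by 47 to 65 bases): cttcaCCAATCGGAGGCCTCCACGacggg
Hsp90b1 (chr10:86705510-86705694, minus strand): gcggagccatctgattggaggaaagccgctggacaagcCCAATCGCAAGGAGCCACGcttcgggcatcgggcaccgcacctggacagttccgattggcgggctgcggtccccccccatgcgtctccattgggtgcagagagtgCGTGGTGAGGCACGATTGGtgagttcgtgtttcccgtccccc
Herpud1 (chr8:94386179-94386428, plus strand): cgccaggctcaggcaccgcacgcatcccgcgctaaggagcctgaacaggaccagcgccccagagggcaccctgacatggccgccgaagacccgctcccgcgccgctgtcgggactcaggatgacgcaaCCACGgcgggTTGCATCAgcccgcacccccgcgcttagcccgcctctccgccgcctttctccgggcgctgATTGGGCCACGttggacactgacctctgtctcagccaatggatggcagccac
The second Hsp90b1 match is the reverse complement of the element. The 19-base Hspa5 match lies within the GENCODE M21 model of the gene, which starts 120 bases before the RefSeq one, so only its near flanks are printed. A match is a description of letters and was not tested as a binding site. Only exact letters inside the window were searched, so a gene without a match may still hold the element. The Herpud1 window ends in all letters of the ERSE but the last, where it is cut.

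Levels below are CPM, a gene's share of the UMIs of a cell type in a mouse sample, per 1000000 UMIs, scaled by TMM (trimmed mean of M values). Hepatocyte sums held 2065229 to 29018248 UMIs from 675 to 2585 nuclei. Per nucleus, the samples' median depth ran from 4491 to 14002.5 UMIs in L, from 1849 to 6062.5 in CS and from 4682 to 8916 in PH hepatocytes. In hepatocyte nuclei, the summed level of 10 hepatocyte marker genes was 12948 to 19924 CPM in L, 20653 to 27496 in CS and 1716 to 5231 in PH. Cell types were named by marker genes in the same counts, so this sum is no separate check of the label. In endothelial nuclei, scaled apart, it was 2226 to 4957 CPM in L and 1074 to 4211 in PH, which overlaps the PH hepatocyte range. In the same hepatocyte sums, the medians in L, CS and PH were 54.6, 58.7 and 129.6 CPM for stellate markers, 47.9, 72.8 and 92.7 for endothelial markers and 36.1, 26.9 and 47.2 for leukocyte markers. The mitochondrial share of hepatocyte UMIs had a median of 0.169% in L, 0.158% in CS and 0.315% in PH, and the part of these in the PH results was not tested. Mice 5 and 6 stood apart in Onecut1, a hepatocyte and bile duct transcription factor gene on the biliary marker list, with 1701 to 1978 CPM in their L and CS hepatocyte sums against 36.2 to 342 in the other mice, and 10.8 to 33.8 CPM in PH of all mice. Pkhd1, another biliary marker, was at 124 to 228 CPM in the L and CS samples of mice 5 and 6 and 119 to 218 in those of the other mice, and the defining markers Krt19 and Epcam were at 0 to 0.24 and 0.08 to 0.63 CPM in all L and CS samples. Results on the 10 genes in hepatocyte nuclei that changed without mice 5 and 6, an alternative added after seeing the data, are given beside them. Of 53128 distinct barcodes, 337 occurred in more than 1 pool. The CS sample of mouse 8 stood apart for several chaperones, and calls on the 10 genes that changed without mouse 8 are noted beside them.

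Against L, hepatocyte nuclei of CS had higher levels of 5 of the 10 UPR genes, Hspa5, Hsp90b1, Dnajb9, Atf4 and Creb3l3, and lower levels of none. The largest differences were in Hspa5, 4.83-fold, and Dnajb9, 3.41-fold, and without mouse 8 their order turned, with log2 changes of 1.53 and 1.74. Of all 26521 genes tested 21.5% were called (7.69% higher and 13.8% lower), by the quasi-likelihood test of edgeR, with p-values adjusted by Benjamini-Hochberg over all genes and a threshold of 0.05, and the median log2 difference was 0.47 over the 10 genes against 0.01 over all genes. Against CS, PH nuclei had lower levels of 7 of the 10 and a higher level of 1, Ddit3, where 51.6% of all genes were called (27.6% higher, 24.0% lower). Against L, PH nuclei had 4 genes higher, Hspa5, Atf4, Ddit3 and Dnajb9, and 5 lower, Hsp90b1, Pdia4, Herpud1, Xbp1 and Creb3l3, where 54.1% of all genes were called (27.4% higher, 26.7% lower). The counts of UPR genes are read against these shares as a description, since the genes were chosen with earlier results of these data known. A high count of calls in PH is not particular to them. The median log2 difference of the 10 genes was -1.39 from CS to PH and -0.77 from L to PH. Over all genes it was 0.01 and 0.04. The 3 comparisons share samples with each other.

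**Figure D1:**
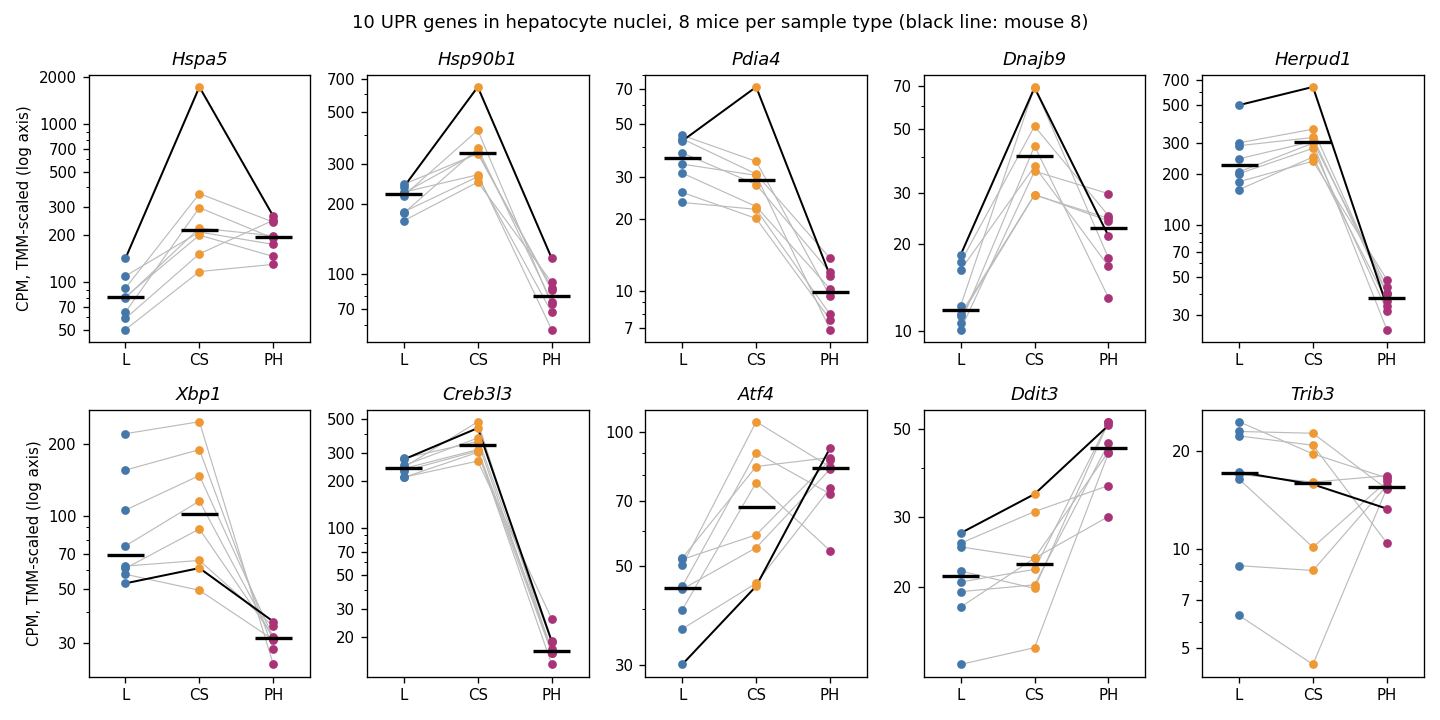
Each panel plots 1 UPR gene in hepatocyte nuclei as TMM-scaled CPM (log axis) for the L, CS and PH samples of 8 mice, with points for samples, grey lines joining the samples of a mouse, a black line for mouse 8 and short bars for medians. CS8 lies at 1727 CPM for Hspa5 against 365 for the next CS sample, and Creb3l3 lies between 13.3 and 26.1 CPM in all PH samples.

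Hspa5 encodes BiP, the main ER chaperone of the Hsp70 family. Its level in hepatocyte nuclei ran from 50.3 to 142 CPM in L with a median of 80.5, from 117 to 1727 in CS with a median of 215, and from 130 to 262 in PH with a median of 194. All 8 mice had more in CS than in L and all 8 more in PH than in L, but only 2 of 8 had more in PH than in CS, and the ranges of the sample types overlapped. The highest value, 1727 CPM, belonged to CS8, and the next CS sample had 365, so the CS mean was 411 ± 537 CPM (SD, n = 8) with it and 223 ± 84.3 (n = 7) without it. The log2 change was 2.27 ± 0.40 (SE) from L to CS with adjusted p = 7.06e-05, and 1.53 without mouse 8. From CS to PH it was -1.05 ± 0.38 with adjusted p = 0.0226, a call that 6 alternatives lost. Without mouse 8 it was -0.23 with adjusted p = 0.388, with mouse as a block -0.52 with adjusted p = 0.0723, and with the pool as covariate -0.41 with adjusted p = 0.444. With mouse 8 kept it was also not called over all nuclei (-0.85, adjusted p = 0.0629), with unspliced counts only (-0.79, adjusted p = 0.158) or with library-total scaling (-0.43, adjusted p = 0.369). From L to PH the change was 1.22 ± 0.39 with adjusted p = 0.00776.

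Hsp90b1, which encodes the ER chaperone GRP94, separated the 3 sample types without overlap. It was at 170 to 244 CPM in L (median 221), 249 to 644 in CS (median 334) and 57.3 to 117 in PH (median 80.3). CS was above L in every mouse, and PH was below both in every mouse. The log2 change was 0.76 ± 0.16 from L to CS (adjusted p = 0.000808) and -2.13 ± 0.17 from CS to PH (adjusted p = 4.8e-12), which is 4.37-fold lower, and PH was 2.58-fold below L. CS8 was again highest, at 644 CPM against 418 for the next. With unspliced counts only, the change from L to CS was 0.52 with adjusted p = 0.0528. Hsp90b1 thus fell below its L level in culture while Hspa5 stayed above it.

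Pdia4, a disulfide isomerase of the ER that helps proteins fold, ran from 23.5 to 44.8 CPM in L, 20.1 to 71.4 in CS and 6.9 to 13.7 in PH, with medians of 35.9, 29.2 and 9.86. The L and CS values overlapped and their difference missed the threshold (log2 change -0.13 ± 0.20, adjusted p = 0.722). Mouse 8 was the 1 mouse of 8 with more Pdia4 in CS than in L, and its 71.4 CPM compare with 34.9 in the next CS sample. All PH samples lay under all L and CS samples, and the level fell by 1.83 ± 0.21 on the log2 scale from L to PH (adjusted p = 7.54e-09).

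Dnajb9 encodes ERdj4, a J-domain cochaperone of BiP. Its level was 10.1 to 18.4 CPM in L (median 11.9), 29.6 to 69.7 in CS (median 40.3) and 13.1 to 29.9 in PH (median 22.7). L and CS did not overlap, and PH lay between them, below CS and above L in all 8 mice. The log2 change was 1.77 ± 0.19 from L to CS (adjusted p = 3.62e-08), -1.09 ± 0.19 from CS to PH (adjusted p = 1.04e-05) and 0.68 ± 0.19 from L to PH (adjusted p = 0.00254). The last call was lost with the pool as covariate (0.21, adjusted p = 0.496), and in the 2 pools that hold both L and PH the level was higher in PH in 1 and lower in 1.

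Herpud1 encodes a membrane protein that organises ER-associated degradation. Its values were 161 to 500 CPM in L, 236 to 638 in CS and 24.7 to 48.4 in PH, with medians of 224, 304 and 38.0. Every mouse had more in CS than in L, but the ranges overlapped and the change missed the threshold (0.38 ± 0.21, adjusted p = 0.218), while with spliced counts alone it was 0.72 with adjusted p = 0.00755. L8 and CS8 were the highest of their types. Every PH sample lay under every other sample, 9.02-fold below CS and 6.95-fold below L (adjusted p = 3.04e-13 and 2.85e-12). An antisense gene, Gm15890, overlaps Herpud1, and whether the counting used strand is not given in the sources used here.

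Xbp1, the transcription factor gene that IRE1 acts on, varied more between mice than between L and CS. It ran from 52.8 to 220 CPM in L (median 68.9), from 49.4 to 246 in CS (median 102) and only from 24.4 to 36.7 in PH (median 31.2). L5 and CS5, of the same mouse, were the highest of their types, and L6 and CS6 came next. The change from L to CS was 0.29 ± 0.29 (adjusted p = 0.554), while PH lay under all L and CS samples, by 1.96 ± 0.30 on the log2 scale against CS (adjusted p = 1.86e-06) and 1.67 ± 0.30 against L (adjusted p = 1.69e-05). Without mice 5 and 6 the changes were -1.44 and -1.08, still called (adjusted p = 2.58e-06 and 9.3e-05). The UMIs are counted per gene, so these values do not say which form of the mRNA, cut by IRE1 or not, was present.

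Creb3l3, the gene of CREBH, had the largest change of the 10 in culture. Its level was 210 to 278 CPM in L (median 241), 267 to 477 in CS (median 336) and 13.3 to 26.1 in PH (median 16.3). CS was higher than L in all 8 mice, by 0.55 ± 0.13 on the log2 scale (adjusted p = 0.00175), with ranges that overlapped. PH was 20.2-fold below CS and 13.8-fold below L (adjusted p = 2.83e-20 and 1.9e-19), and no PH sample came near the others. PH3 was the highest PH sample, at 26.1 CPM.

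Atf4, the transcription factor of the PERK arm, moved differently. It was at 30.0 to 52.1 CPM in L (median 44.7), 45.1 to 106 in CS (median 67.9) and 54.2 to 92.2 in PH (median 83.1). CS was above L in each mouse, by 0.68 ± 0.16 (adjusted p = 0.00186), and PH lay above all L samples, by 0.86 ± 0.16 (adjusted p = 2.56e-05). The CS and PH ranges overlapped and 5 of 8 mice were higher in PH (0.18 ± 0.16, adjusted p = 0.374). In contrast to Hspa5, CS8 had the lowest Atf4 of the CS samples. Spliced counts alone gave 0.26 with adjusted p = 0.303 from L to CS. No Atf4 UMIs were assigned as unspliced, and spliced counts are scaled to spliced totals, another denominator than that of the 0.68. The median spliced share of all hepatocyte UMIs was 18.4% in L and 24.3% in CS. ATF4 is controlled largely through translation, which RNA counts do not show.

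Ddit3 encodes CHOP, a transcription factor of prolonged ER stress that ATF4 induces. It ran from 12.8 to 27.4 CPM in L (median 21.3), from 14.1 to 34.3 in CS (median 22.9) and from 30.1 to 52.2 in PH (median 45.0). L and CS overlapped almost fully (log2 change 0.15 ± 0.16, adjusted p = 0.576). PH was above L without overlap, by 1.06 ± 0.16 (adjusted p = 9.93e-07), and above CS in all 8 mice, by 0.90 ± 0.16 (adjusted p = 1.6e-05). The gene overlaps Mars and Gm4189 on the other strand, and reads could be shared between them.

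Trib3, a pseudokinase gene induced by ATF4 and CHOP, showed no called change over all mice. It was at 6.28 to 24.6 CPM in L, 4.44 to 22.6 in CS and 10.5 to 16.8 in PH, with medians of 17.1, 15.9 and 15.5. CS was below L in all 8 mice, but the change was -0.21 ± 0.26 (adjusted p = 0.65), and the spread between mice was wide in L and CS and narrow in PH. Mouse 6 was lowest in both L and CS, and mouse 5 came next. Without mice 5 and 6, Trib3 was called lower in PH than in L (-0.44, adjusted p = 0.0274, against -0.17 and 0.6 with them).

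How the counts were scaled bears on the PH comparisons. With the library total alone, an alternative added after seeing the data, the median log2 change of all genes moved to 0.69 from CS to PH and 0.57 from L to PH, against 0.01 and 0.04 with TMM, and 79.8% and 74.1% of called genes were higher in PH, against 53.5% and 50.7%. None of the 10 genes had a called change of the opposite sign with that scaling. From CS to PH, Atf4 (0.87, adjusted p = 3.8e-06) and Trib3 (0.73, adjusted p = 0.022) were then called higher, while Hspa5 (-0.43, adjusted p = 0.369) and Dnajb9 (-0.40, adjusted p = 0.0568) were no longer called. From L to CS, 35.8% of called genes were higher with TMM, 47.1% with RLE, 49.0% in DESeq2 and 18.5% with the library total, and the calls on the 10 genes did not change.

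**Figure D2:**
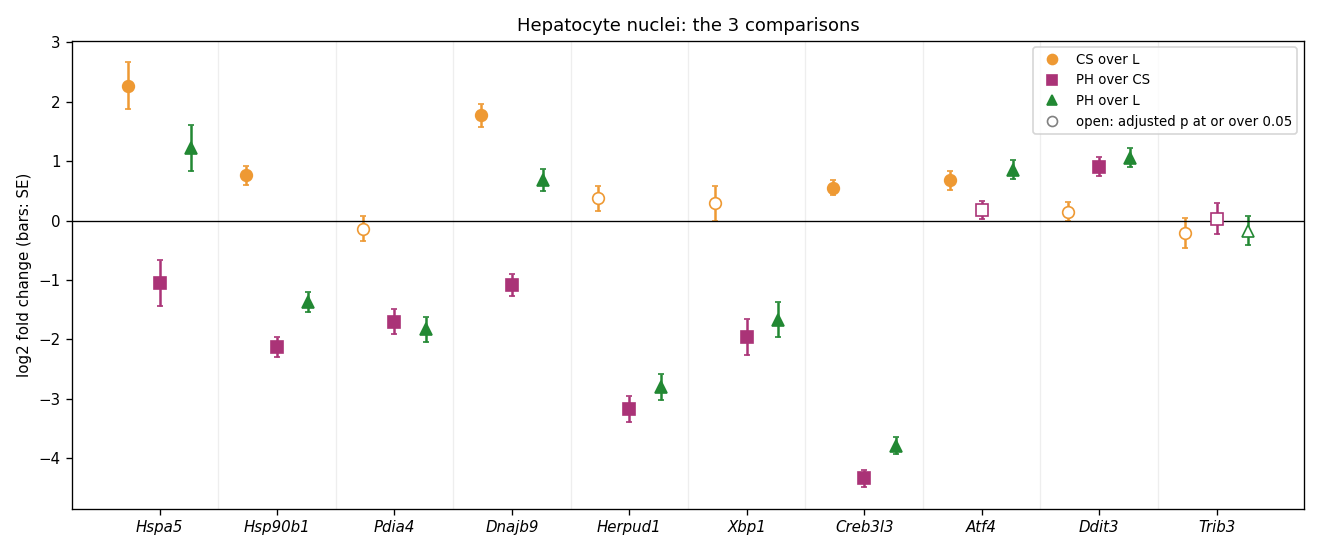
Log2 fold changes with SE bars of the 10 UPR genes in hepatocyte nuclei for CS over L (circles), PH over CS (squares) and PH over L (triangles), filled where the adjusted p was under 0.05. The CS over L values lie between -0.21 and 2.27, and PH over CS reaches -4.34 for Creb3l3.

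Within sample types, the genes did not vary as 1 block across mice. Over the 24 hepatocyte sums, as deviations of log2(CPM + 1) from the mean of the sample type, Hspa5 and Hsp90b1 had r = 0.82, which was 0.64 without mouse 8, and Hspa5 and Pdia4 had 0.78, which was 0.48 without it. Ddit3 and Trib3 had r = 0.59 (0.63 without mouse 8), and Xbp1 and Trib3 had -0.77 (-0.79). Without mice 5 and 6 these last values were 0.06 and -0.39, while Hspa5 had 0.86 with Hsp90b1 and 0.88 with Pdia4. Among 8601 genes of at least 10 CPM, the patterns most like Hspa5 were those of Hsp90ab1 (r = 0.87), Hsph1 (0.82) and Pdia3 (0.82), and Hsp90b1 was most like Hspa5, Hsp90ab1 and Pdia6 (0.80). For Pdia4 they were Hspa5, Uspl1 and Calr (0.77), and for Herpud1 its antisense neighbour Gm15890 (0.83), Tsc22d3 and Dnaja1. For Dnajb9 they were Ssr3 (0.84), 4931406P16Rik and Heatr5a, and for Xbp1 3110082I17Rik (0.95), Zyg11a and Wdr45b. Atf4 was most like Ddx3x (0.86), Agxt2 and Prkdc, Ddit3 most like Ralgapa2 (0.82), Nfkbia and Sntb2, Creb3l3 most like Syne2 (0.88), Ap3d1 and Baz2a, and Trib3 most like Sesn2 (0.87), Setd4 and Plin3. These likeness values include mice 5, 6 and 8, the points share mice and pools, and all coefficients are descriptions.

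Counts split by splicing state showed where the UMIs came from. Atf4 had no UMIs assigned as unspliced in hepatocyte nuclei, so it could not be compared between states. Spliced UMIs made up a median of 72.4% of Hspa5 in L, 72.5% in CS and 67.2% in PH, and 25.3%, 40.5% and 41.9% of Herpud1. The Pdia4 share was 27.4%, 50.1% and 43.9%, and that of Trib3 24.7%, 42.2% and 46.2%. In a fit of the difference between the states, spliced counts had a more positive change than unspliced ones from L to CS for Pdia4 (by 0.93 ± 0.15 on the log2 scale, adjusted p = 4.8e-06), Herpud1 (0.54 ± 0.12, adjusted p = 0.000428) and Trib3 (0.59 ± 0.19, adjusted p = 0.0179), where 22.3% of 16744 genes were called. From L to PH, the same 3 genes and Xbp1 (0.52 ± 0.15, adjusted p = 0.008) had a more positive change in spliced than in unspliced counts, Hspa5 had a more negative one (-1.03 ± 0.18, adjusted p = 7.45e-06), and 28.9% of all genes were called. From CS to PH, Hspa5 (-0.68 ± 0.18, adjusted p = 0.0026), Ddit3 (-0.60 ± 0.15, adjusted p = 0.00258) and Xbp1 (0.44 ± 0.16, adjusted p = 0.0367) were called, against 25.6% of all genes. The Hspa5 and Ddit3 calls of this last comparison were lost when ambiguous UMIs were counted as spliced, and Herpud1 (0.37, adjusted p = 0.00426), Creb3l3 (0.55, adjusted p = 0.000239) and Trib3 (0.52, adjusted p = 0.0215) were then called. For L to PH that setting added Creb3l3 (0.49, adjusted p = 0.000689) and Hsp90b1 (0.39, adjusted p = 0.0121). Without mouse 8, Pdia4 was called from CS to PH (-0.56, adjusted p = 0.0106, against -0.41 and 0.0525 with it). The overall spliced share of hepatocyte UMIs was 14.9 to 19.7% in L, 20.5 to 28.7% in CS and 24.0 to 27.8% in PH.

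Position in the liver lobule was read from the share of pericentral UMIs among those of fixed pericentral and periportal lists, and equal numbers of hepatocyte nuclei at the low end (portal side) and the high end (central side) of that share, leaving out the middle, were compared within mice. In L, portal-side nuclei had more Xbp1 (by 0.42 ± 0.07, adjusted p = 4.77e-05, 8 of 8 mice), Hspa5 (0.30 ± 0.07, adjusted p = 0.00289, 7 of 8), Creb3l3 (0.21 ± 0.06, adjusted p = 0.0117, 6 of 8) and Herpud1 (0.15 ± 0.05, adjusted p = 0.0342, 8 of 8). They had less Trib3 (-0.36 ± 0.09, adjusted p = 0.00414, 0 of 8 mice higher) and Pdia4 (-0.33 ± 0.08, adjusted p = 0.00324, 1 of 8 higher), and 20.9% of all genes were called. In CS, 5 of the 10 genes were lower on the portal side and none higher, against 15.9% of all genes called. These were Dnajb9 (-0.69 ± 0.11, adjusted p = 6.55e-07), Atf4 (-0.48 ± 0.10, adjusted p = 0.000152), Hsp90b1 (-0.47 ± 0.09, adjusted p = 5.82e-05), Hspa5 (-0.46 ± 0.11, adjusted p = 0.000895) and Ddit3 (-0.36 ± 0.13, adjusted p = 0.0451). For Dnajb9 the CS levels were 15.9 to 51.3 CPM on the portal side and 31.1 to 82.0 on the central side, with the central side higher in all 8 mice. Hspa5 thus leaned to the portal side in L and to the central side in CS, a difference between sample types that was not tested. The sides were set within each sample and need not match in position between L and CS. The median pericentral share on the central side ran from 54.7 to 84.8% in L and from 40 to 66.5% in CS. Median depth per hepatocyte nucleus also differed between L and CS, as given above. With all nuclei split at the median share, Creb3l3 (adjusted p = 0.0528) and Herpud1 (0.134) in L and Ddit3 in CS (0.0977) were no longer called, and Herpud1 in CS was called higher on the portal side (0.25, adjusted p = 0.0106). Without mouse 8, Herpud1 in L (adjusted p = 0.0618) and Ddit3 in CS (adjusted p = 0.0619) were no longer called.

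**Figure D3:**
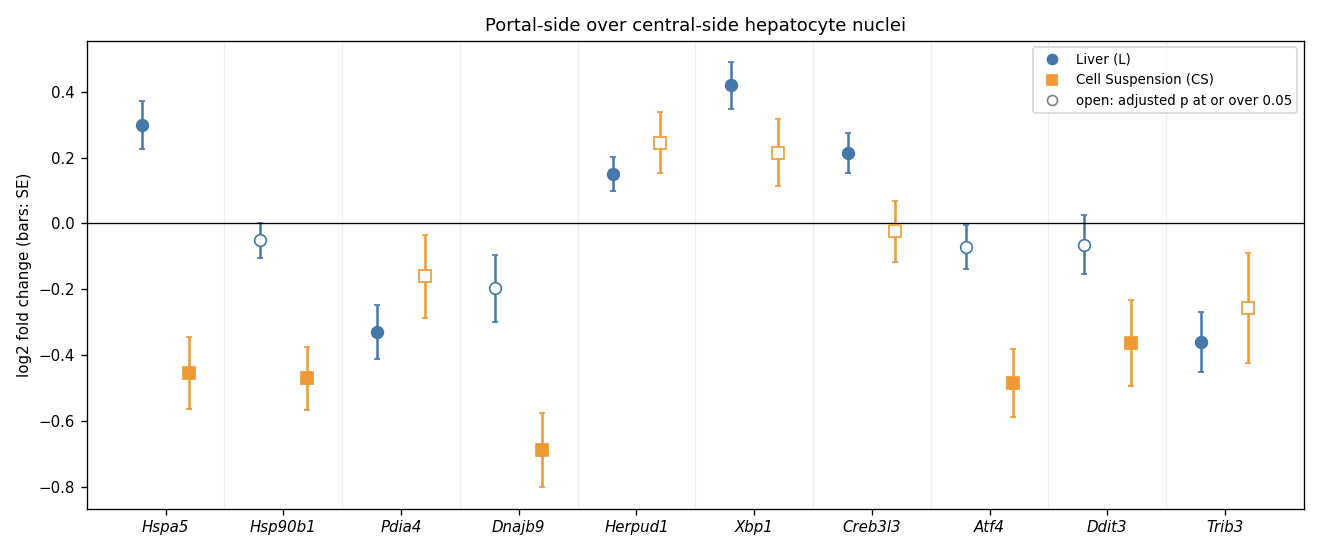
Log2 fold changes of portal-side over central-side hepatocyte nuclei with SE bars, for Liver (circles) and Cell Suspension (squares), filled where the adjusted p was under 0.05. Hspa5 lies at 0.30 in L and -0.46 in CS, and Dnajb9 lies at -0.69 in CS.

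The author clusters within PH hepatocytes differed in these genes, given as a description since the clusters were made from the same counts. Median levels over 8 samples, in CPM without TMM scaling, were 325 for Hspa5 in cluster 0 against 185 to 216 in clusters 1, 14 and 17. Dnajb9 had 89.7 CPM in cluster 17, where Hspa1a and Hspa1b also lead, against 17.1 in cluster 0, and Atf4 had 163 in cluster 17 against 91.5 to 114 in the others.

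Among hepatocyte, endothelial, Kupffer and stellate nuclei of L, scaled together by TMM, hepatocyte nuclei had the highest median of all 10 UPR genes. In CPM without TMM the order differed for Hspa5, at 76.8 in hepatocyte, 93.5 in Kupffer and 105 in leukocyte nuclei, and for Dnajb9, at 11.6 in hepatocyte and 21.6 in biliary-annotated nuclei, and Ddit3, at 17.8 in hepatocyte and 20.0 in leukocyte nuclei. With TMM, medians of Hspa5 were 94.4 CPM in hepatocyte, 78.9 in Kupffer, 47.2 in endothelial and 43.8 in stellate nuclei. Against hepatocyte nuclei, 10 of 10 genes were lower in endothelial (48.2% of 24388 genes called, 27.5% lower), 9 of 10 in Kupffer (43.7% called, 27.6% lower) and 10 of 10 in stellate nuclei (42.3% called, 26.2% lower), with mouse as a block. Hspa5 in Kupffer nuclei was the exception (-0.19 ± 0.16, adjusted p = 0.365), and scaling by library total alone turned it to 0.45 with adjusted p = 0.0177. Other calls lost with that scaling were Ddit3 in endothelial and Kupffer nuclei and Dnajb9 in stellate nuclei, which RLE scaling lost as well (-0.38, adjusted p = 0.298). Differences among the other types were not tested, and their ranges overlapped for all 10 genes. The median of all genes was -0.14 in endothelial, -0.37 in Kupffer and -0.31 in stellate nuclei with TMM, and 0.23, 0.25 and 0.08 with the library total.

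Creb3l3 had the largest difference of the 10 genes in endothelial and Kupffer nuclei, and Trib3 in stellate nuclei. Creb3l3 had 249 to 327 CPM in hepatocyte nuclei and 17.9 to 60.3 in endothelial, 14.0 to 69.2 in Kupffer and 3.99 to 57.4 in stellate nuclei, with no overlap between hepatocytes and the rest. As a share of the hepatocyte level of the same sample, in CPM without TMM, Creb3l3 had a median of 13.6% in endothelial, 15.7% in Kupffer and 21.8% in stellate nuclei, while the sum of 10 hepatocyte markers had 20.7%, 27.2% and 23.1%. The Creb3l3 medians thus lay below those of the marker sum in each of these types. Single markers spread widely around the sum, from Hnf4a at 12.6% to Serpina1c at 46.4% in endothelial nuclei. These markers had 12.8% and 59.1% in Kupffer and 16.1% and 39.9% in stellate nuclei. Creb3l3 lay above Hnf4a in each type, so the sum is no fixed yardstick. The part of hepatocyte RNA in the Creb3l3 values was not tested. Herpud1 had 26.4%, 23.1% and 20.9%, close to the marker sum, whereas Hspa5 had 65.3%, 148% and 59.8%, although its TMM-scaled median in Kupffer nuclei was below that of hepatocytes. Trib3 was at 0 to 8.73 CPM in Kupffer and 0 to 4.13 in stellate nuclei, against 7.24 to 28.9 in hepatocytes, and rested on 10 and 6 UMIs.

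**Figure D4:**
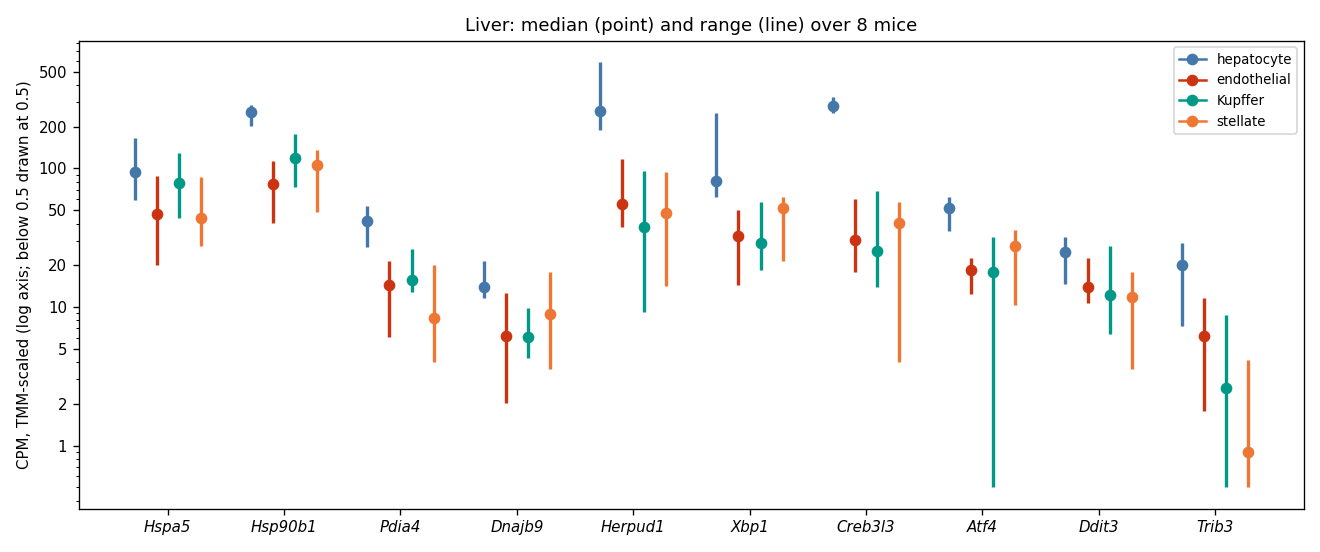
Median (point) and range over 8 mice (line) of the 10 UPR genes in hepatocyte, endothelial, Kupffer and stellate nuclei of Liver, as TMM-scaled CPM on a log axis, with values under 0.5 drawn at 0.5. Creb3l3 lies at 249 to 327 CPM in hepatocyte nuclei and at no more than 69.2 in the others.

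Endothelial nuclei, of which there were 2474 in L, 1152 in CS and 1809 in PH, allowed the same comparisons in another cell type. A sample held 161 to 560 of them in L, 42 to 254 in CS and 29 to 510 in PH. The sums held 95289 to 2578536 UMIs, so low values can rest on few UMIs. Against L, CS had 3 genes higher and none lower, Hspa5, Hsp90b1 and Atf4, where 3.90% of 18279 genes were called. Hspa5 ran from 21.1 to 92.5 CPM in L (median 48.8), from 49.4 to 428 in CS (median 91.7) and from 100 to 229 in PH (median 154). The log2 change from L to CS was 1.24 ± 0.29 (adjusted p = 0.00554), and 0.74 with adjusted p = 0.0814 without mouse 8, whose CS8 had the 428 CPM. Atf4 ran from 13.0 to 23.3 CPM in L, 18.5 to 80.4 in CS and 28.0 to 96.3 in PH, and was above L in all 8 mice in both (1.28 ± 0.26, adjusted p = 0.00115, and 1.96 ± 0.23, adjusted p = 3.51e-09). Hsp90b1 was higher in CS by 0.72 ± 0.19 (adjusted p = 0.0201, and 0.0502, 0.0554 and 0.107 without mouse 1, 4 or 8) and in PH by 0.67 ± 0.19 (adjusted p = 0.00437).

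From L to PH, endothelial nuclei had 4 genes higher, Hspa5 (1.53 ± 0.27, adjusted p = 1.74e-05), Atf4, Dnajb9 (1.67 ± 0.31, adjusted p = 3.63e-05) and Hsp90b1, and 2 lower, Herpud1 (-1.04 ± 0.28, adjusted p = 0.00263) and Creb3l3 (-1.37 ± 0.36, adjusted p = 0.00244), against 33.8% of all genes called. From CS to PH, Atf4 (0.68 ± 0.24, adjusted p = 0.0427) and Ddit3 (1.76 ± 0.39, adjusted p = 0.000607) were higher and Herpud1 (-1.06 ± 0.31, adjusted p = 0.01) and Creb3l3 (-1.88 ± 0.39, adjusted p = 0.000292) lower, against 20.0% of all genes. The Atf4 call was lost on leaving out any of mice 2, 3, 5, 6, 7 and 8 (adjusted p from 0.0503 to 0.192), and the Herpud1 call without mouse 5 or 8 (0.0652 and 0.0718). Hspa5, at 0.29 ± 0.28 (adjusted p = 0.554), was called higher in PH than in CS without mouse 8 (0.78, adjusted p = 0.0137). Ddit3 rested on 133 UMIs in L, 17 in CS and 89 in PH. In the comparison of PH with L, Ddit3 and Trib3 were also called higher with RLE (adjusted p = 0.0179 and 0.0321), DESeq2 (0.0115 and 0.0294) and the library total (0.0221 and 0.0351), and each without mouse 8 (0.025 and 0.0466). From L to CS, Dnajb9 was called with RLE (0.0426) and DESeq2 (0.0214). With the pool as covariate, Dnajb9 (1.09), Herpud1 (-0.64) and Creb3l3 (-0.55) were no longer called from L to PH. The same held for Atf4 (0.295) and Herpud1 (-0.70) from CS to PH, and for Hspa5 (0.90) and Atf4 (0.84) from L to CS. The sum of hepatocyte markers in endothelial nuclei, TMM-scaled as the genes, was 2226 to 4957 CPM in L, 2428 to 7664 in CS and 1074 to 4211 in PH, and its part in the Creb3l3 and Herpud1 values was not tested. In the same sums, endothelial markers had medians of 14369, 13284 and 6617 CPM in L, CS and PH, and mesothelial markers (3 of 6 tested) 90.3, 26.8 and 7.80, and the part of these in the endothelial results was not tested.

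The difference between the 2 cell types' responses was tested directly, with each sample as a block. From L to CS, Hspa5 rose less in endothelial than in hepatocyte nuclei (by -0.87 ± 0.23 on the log2 scale, adjusted p = 0.0166) and Ddit3 had a more negative change (-1.38 ± 0.40, adjusted p = 0.0333), where 2.80% of 26796 genes were called. Neither call held with RLE scaling, with the library total or without mouse 8 (adjusted p = 0.0779 and 0.145 in the last). In that order, the difference was -0.735, -0.665 and -0.769 for Hspa5 and -1.26, -1.19 and -1.21 for Ddit3. From L to PH, 8 of 10 genes had a more positive change in endothelial nuclei, led by Creb3l3 (2.45 ± 0.34), Hsp90b1 (2.10 ± 0.20), Xbp1 (2.02 ± 0.24) and Herpud1 (1.80 ± 0.24), against 25.8% of all genes (14.5% more positive). Without mouse 8, Dnajb9 (adjusted p = 0.0856) and Trib3 (0.0567) were no longer called there, and with the library total Dnajb9 (adjusted p = 0.169) and Trib3 (0.235) were lost and Ddit3 was called more negative (-0.86, adjusted p = 0.0118). For CS to PH it was 9 of 10, again with Creb3l3 (2.62 ± 0.36), Herpud1 (2.37 ± 0.27), Xbp1 (2.26 ± 0.27) and Hsp90b1 (2.24 ± 0.20) as the largest, against 20.0% of all genes (13.3% more positive). Atf4 (adjusted p = 0.204) and Trib3 (0.0992) were no longer called without mouse 8, and with RLE scaling they had adjusted p = 0.195 and 0.127. Hsp90b1 went in opposite directions from L to PH, down in hepatocyte and up in endothelial nuclei. The median over all genes was 0.30 from CS to PH with TMM and -0.34 with the library total, under which 5 genes were called. In CPM without TMM scaling, the sum of hepatocyte markers in endothelial nuclei had a median of 2949 in L, 4376 in CS and 3069 in PH, while in hepatocyte nuclei it was 14388, 20179 and 3833. With TMM, set in each cell type apart, the medians were 3012, 4648 and 3064 in endothelial and 15721, 24141 and 2940 CPM in hepatocyte nuclei, and the part of this in the differences was not tested.

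**Figure D5:**
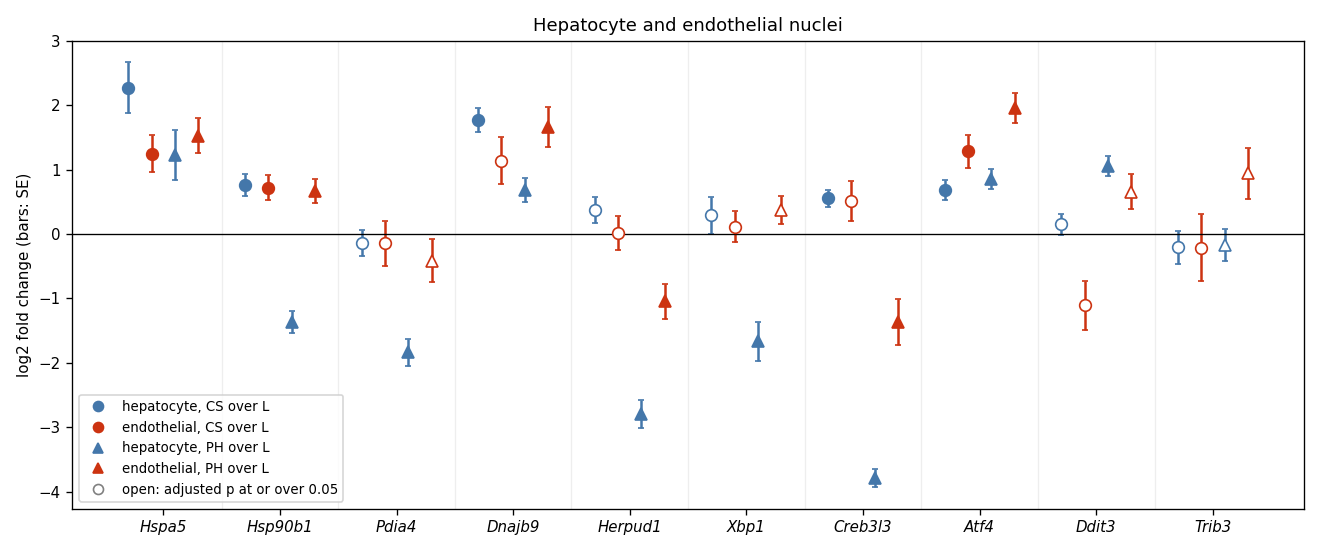
Log2 fold changes with SE bars of the 10 UPR genes in hepatocyte (blue) and endothelial (red) nuclei, for CS over L (circles) and PH over L (triangles), filled where the adjusted p was under 0.05. Hsp90b1 in PH over L lies at -1.37 in hepatocyte and 0.67 in endothelial nuclei, and Hspa5 lies above 0 in both.

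Kupffer and stellate nuclei were tested between L and CS only. In PH, 3 samples had at least 10 Kupffer nuclei, and stellate nuclei (192 in 8 samples) had a median of 163 CPM of Hspa5 without TMM, against 45.5 in L and 126 in CS, which was not tested. In Kupffer nuclei (919 in L, 342 in CS), Hspa5 was higher in CS by 1.00 ± 0.26 (adjusted p = 0.0439), the 1 call among the 10, against 1.30% of 13819 genes. Without mouse 8, whose CS8 had 614 CPM against 227 in the next sample, it was 0.58 with adjusted p = 0.343, and it was also not called without mouse 1, 3, 6 or 7 (adjusted p = 0.134, 0.0908, 0.0511 and 0.119). In stellate nuclei (880 in L, 148 in CS, with 1 CS sample of under 10 nuclei left out), 9 genes could be tested and 0 were called by edgeR, although 3 had an unadjusted p under 0.05, against 3.19% of 13516 genes called. There Hspa5 changed by 1.05 ± 0.32 (adjusted p = 0.0513), and by 1.23 with adjusted p = 0.0351 with mouse as a block and 1.42 with adjusted p = 0.0076 with RLE scaling, which also called Creb3l3 higher (1.40, adjusted p = 0.0399, against 1.04 and 0.117 with TMM).

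The wider ER and PERK pathways were described in hepatocyte nuclei through lists of further genes, to be read against the 7.69% of all genes called higher and 13.8% lower from L to CS, 27.6% and 24.0% from CS to PH, and 27.4% and 26.7% from L to PH. These lists too were chosen with earlier results of these data known, so their counts are descriptions. Of 7 sensors and their proteases, 1 was higher from L to CS, Ern1 (0.79 ± 0.18, adjusted p = 0.00137). From CS to PH, 2 were higher and 3 lower. Ern1 then fell by 1.88 ± 0.18 (adjusted p = 3.36e-10) and Mbtps2, the site-2 protease gene, was 0.98 ± 0.12 higher. Of 23 further ER chaperones and foldases, 4 were higher and 1 lower in CS than in L, with a median of 0.00, and 2 were higher and 14 lower in PH than in CS, with a median of -0.81. Creld2 (1.65 ± 0.36, adjusted p = 0.00105) and P4hb (1.29 ± 0.15, adjusted p = 1.35e-07), a disulfide isomerase subunit, led the former. Pdia5 (-3.16 ± 0.15) and Ero1lb (-2.82 ± 0.22) fell most from CS to PH, while Ero1l, an ER oxidase gene that hypoxia also induces, rose by 1.73 ± 0.14.

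ER-associated degradation had 2 genes higher and 4 lower of 16 from L to CS, and 3 higher and 11 lower from CS to PH (median -0.78), with Derl1 (0.79 ± 0.12 and then -2.00 ± 0.13) and Sel1l (-1.96 ± 0.11 from CS to PH) among the largest. Of translocon and signal peptidase genes, 1 was higher and 5 lower of 15 from L to CS and 3 higher and 5 lower from CS to PH. Of 24 PERK-ATF4 targets, 12 were higher and 3 lower from L to CS (median 0.63), 14 higher and 8 lower from CS to PH (median 1.42), and 17 higher and 2 lower from L to PH (median 1.72). Atf3 rose from 7.61 to 1106 CPM on average from L to CS (7.18 ± 0.34, adjusted p = 9.31e-16) and Gdf15 from 15.4 to 225 CPM (3.87 ± 0.33), both stress genes that other pathways induce too. From CS to PH, Atf3 then fell by 3.52 ± 0.28 to 96.3 CPM (adjusted p = 4.97e-12) and Cth, of cysteine synthesis, by 5.01 ± 0.32 (adjusted p = 2.92e-14). From L to PH, Vldlr (5.19 ± 0.36), a lipoprotein receptor gene, and Slc7a1 (4.12 ± 0.15), a cationic amino acid transporter gene, rose most, and Cth fell by 3.52 ± 0.30. Of 11 tRNA synthetases 4 were higher and 0 lower from L to CS, 6 higher and 4 lower from CS to PH, with Wars at -0.76 ± 0.13 and Aars at -0.62 ± 0.09, and 8 higher and 2 lower from L to PH, led by Gars (2.50 ± 0.11) and Iars (1.54 ± 0.12).

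Relatives and targets of CREBH were given the same count. Of 4 other CREB3 family genes, 3 were higher in PH than in L and none lower, Creb3l2 by 0.86 ± 0.15 and Creb3 by 0.75 ± 0.14, while Creb3l3 itself fell. Of 7 genes known as CREBH targets, 2 were higher and 1 lower from L to CS, and from L to PH 2 were higher and 4 lower (median -3.27 against 0.04 over all genes), with Hamp, the hepcidin gene, at -4.53 ± 0.33 and Apoa5 at -4.17 ± 0.17. Apoa4 was higher in both CS (2.02 ± 0.32) and PH (1.45 ± 0.31) than in L. Of the 4 eIF2alpha kinase and substrate genes, Eif2ak2, the kinase that senses double-stranded RNA, was 2.01 ± 0.13 higher in PH than in L, and Eif2ak1 was 1.09 ± 0.12 lower.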

How the data were processed

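The 24 samples were hashtagged and pooled in 6 reactions of 4 and sequenced. Pool 1 held L3, L7, L8 and CS7, and pool 6 held L1, L2, L6 and CS6. Pool 3 held CS1, PH1, PH5 and PH6, and pool 4 held CS2, CS3, PH2 and PH7. Only pools 2 (L4, CS5, CS8, PH4) and 5 (L5, CS4, PH3, PH8) held both L and PH. Pool and sample type therefore cannot be fully told apart between L and PH. The authors used bcl2fastq 2.19.0, Salmon Alevin and Alevin-fry with Ensembl GRCm38, and deposited raw UMI counts per barcode and gene for spliced, unspliced and ambiguous RNA. Nuclei, samples, clusters and cell types came from the authors' table, with doublets removed by them and the hashtag CD2 read as CS2. Hashtag counts were not used.

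The 3 states were added and summed per mouse sample and cell type. Cultured clusters carry no cell type there and were classed by marker lists with a rule set after seeing the data. A cluster was called hepatocyte unless the summed level of another list exceeded that of the hepatocyte list. Clusters 0, 1, 14 and 17, so called, had 3676, 4707, 3138 and 5811 CPM of hepatocyte markers. Cluster 12, called endothelial, had 3447 CPM of these and 7009 CPM of endothelial markers. The hepatocyte name in PH thus rests on this rule. A cluster of 2321 low-UMI nuclei was left unnamed. Genes with at least 10 counts were tested with edgeR 4.0.16 (R 4.3.3, TMM, quasi-likelihood, Benjamini-Hochberg over all genes, threshold 0.05), with sample type as factor and no block. The 10 genes and all lists were chosen with earlier results of these data known. From other lists, the 2 largest called rises and falls of at least 5 CPM were eligible for naming, and for each of the 10 genes the 3 highest correlations. Alternatives were RLE and library-total scaling, DESeq2 1.42.0, filters, a mouse block, the pool, splicing states, thinning and leaving out mice. Library-total scaling, the handling of unnamed and cultured-annotated nuclei, leaving out mouse 8 in the cell type difference, splicing and zone fits, and leaving out mice 5 and 6 were chosen after seeing the data. Fits were run on simulated counts with 1 fixed spread and no mouse effect, pool effect or outlying sample. That run cannot show how the fits behave where these are present. Same-mouse deviations correlated at 0.35 to 0.85 between L and CS, -0.05 to 0.11 between L and PH and -0.15 to 0.11 between CS and PH, and the pairing itself comes from the study's methods. In fits without a block, p-values measure the spread between samples of a type and treat samples of 1 mouse as independent. In fits with a mouse or sample block, they measure the spread of the differences within mice or samples. Promoters are RefSeq's, gene spans GENCODE M21.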

Additional observations from a re-analysis of the deposited data

Results flagged for a closer look

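A sample far from the others of its type was found in 11 of 98 groups of 7 or 8 samples examined by Dixon's test at the 95% level, where chance alone marks some such groups. Mouse 8 accounted for 7 of the 11. In hepatocyte nuclei, CS8 had 1727 CPM of Hspa5 against 365 in the next CS sample, 644 CPM of Hsp90b1 against 418, 638 CPM of Herpud1 against 362, and 71.4 CPM of Pdia4 against 34.9, and L8 had 500.4 CPM of Herpud1 against 302. CS8 was also highest for Hspa5 in endothelial nuclei (428 against 115 CPM) and in Kupffer nuclei (614 against 227). The others were Creb3l3 in PH3 hepatocyte nuclei (26.1 against 18.7 CPM), Trib3 in PH1 endothelial nuclei (33.2 against 15.2), Ddit3 in L6 Kupffer nuclei (37.3 against 20.0) and Trib3 in CS2 Kupffer nuclei (6.14 CPM, with the others at 0), the last from 1 UMI.

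The change in endothelial nuclei differed from that in hepatocyte nuclei for the following genes, given as endothelial minus hepatocyte log2 change. From L to CS, Hspa5 differed by -0.87 and Ddit3 by -1.38. These calls were both lost with RLE scaling, with the library total and without mouse 8. Calls below on Atf4 and Trib3 from CS to PH, and Dnajb9 and Trib3 from L to PH, were lost without mouse 8. The library total lost these as well, and Hspa5 and Pdia4 from CS to PH. From CS to PH, the difference was 1.22 for Hspa5, 2.24 for Hsp90b1, 2.26 for Xbp1, 0.69 for Atf4, 1.82 for Dnajb9, 2.37 for Herpud1, 2.62 for Creb3l3, 1.61 for Pdia4 and 1.34 for Trib3. From L to PH, it was 2.10 for Hsp90b1, 2.02 for Xbp1, 1.13 for Atf4, 1.03 for Dnajb9, 1.80 for Herpud1, 2.45 for Creb3l3, 1.51 for Pdia4 and 1.09 for Trib3. In CPM without TMM scaling, hepatocyte markers summed to a median of 2949 (L), 4376 (CS) and 3069 (PH) in endothelial nuclei, and their part in these differences was not tested.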

How the results depend on the processing

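In hepatocyte nuclei, 703 of 717 values of the 10 genes stayed on the same side of the threshold over all alternatives, and no called value turned its sign, while values that were not called could, as Trib3 from CS to PH did (0.04, and -0.24 without mice 5 and 6). With unspliced counts only, 3 of the 10 genes were called from L to CS. Hsp90b1 was lost there (0.52, adjusted p = 0.0528), and Atf4, with no unspliced UMIs, could not be tested. Thinning all sums to the shallowest left 3247 genes called from L to CS. With the mouse as a block, hepatocyte nuclei had 5, 7 and 9 of the 10 genes called (CS vs L, PH vs CS, PH vs L), and the block changed 2 calls, Hspa5 from CS to PH in hepatocyte nuclei (-0.52, adjusted p = 0.0723) and Hspa5 in stellate nuclei, where 1 gene was then called. In endothelial nuclei, the pool as covariate left 334 genes and 1 of the 10 called from L to CS, 2 of the 10 from CS to PH, and 3268 genes and 3 of the 10 from L to PH. Leaving out 1 mouse gave 432 to 768 genes and 1 to 4 of the 10 from L to CS, and 2 to 5 of the 10 from CS to PH. In Kupffer nuclei it gave 77 to 219 genes and 0 to 1 of the 10, and in stellate nuclei 209 to 426 genes and 0 to 1 of the 10. RLE scaling gave 226 genes and 2 of the 10 in stellate nuclei, and the library total 195 genes and 1. In stellate nuclei 28.3% of called genes were higher in CS with TMM, 86.3% with RLE and 78.5% with the library total. In endothelial nuclei the share from L to CS was 52.1%, 68.9% and 42.2%, and in the difference between cell types 21.7%, 38.6% and 50.7%. For that difference from L to CS, RLE left 0 of the 10 called, the library total 448 genes and 0 of the 10, and leaving out mouse 8 left 0 of the 10, while from CS to PH the library total left 5. Library-total scaling turned Hspa5 in Kupffer against hepatocyte nuclei to 0.45, and ambiguous UMIs counted as spliced turned Hsp90b1 from L to PH, spliced minus unspliced, to 0.39. The cause of these changes was not tested. Outside hepatocytes, Ddit3 and Trib3 rested on few UMIs, such as 17 and 13 in endothelial nuclei of CS. The part of depth in their results was not tested.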
